A study of Mus musculus with 2 samples.

Results

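The cells described here are 1814 T cells that carried at least 1 UMI of Cxcr3, the chemokine receptor that marks type 1 helper (Th1) cells, and no UMI of the regulatory, follicular or cycling genes Foxp3, Il1rl1, Ikzf2, Cxcr5 and Mki67. A UMI is a molecular tag, so UMI counts stand for captured mRNA molecules. The expression library held 22960 barcodes, of which 21236 had at least 500 genes and under 10% mitochondrial UMIs. Of those, 14382 carried 1 hashtag, with at least 10 counts of it and at least 80% of all counts of hashtags 1 to 6, and 13771 of these were T cells with 2 or more summed UMIs of Cd3e, Cd3d, Cd3g and Trac. The 1814 Cxcr3-positive cells were split into 1121 cells of hashtags 1 to 4 and 693 cells of hashtags 5 and 6.

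The sort took CD4 T cells from spleen and from visceral adipose tissue (VAT). Per the labels, the mice were of strain C57BL/6 Foxp3.Cre-YFP, and Bmal1 was either intact or deleted in their regulatory T cells (Tregs). Mice were kept on a reversed light cycle and were sampled at zeitgeber time (hours after lights on) 0 or 12. Foxp3 drives the Cre of this strain, so the deletion is aimed at Tregs, and the cells described here were chosen to lack Foxp3 UMIs. The 2 tissues, 2 genotypes and 2 times make 8 combinations. Tagged cells were pooled and run as 1 single-cell 3′ expression library with 1 hashtag library. How the 8 combinations relate to the hashtags is not known here. Only 6 hashtags carried cells, their names are plain numbers, and no hashtag was assigned to a tissue, genotype or time. How many mice stand behind a hashtag is not known here.

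Th1 cells are CD4 T cells that make interferon gamma under the transcription factor T-bet (Tbx21), and CXCR3 guides them to sites where interferon-induced chemokines are made. Naive CD4 T cells recirculate through lymphoid organs with the help of the homing receptor CCR7, while many memory cells lose it and take up genes of migration, adhesion and rapid cytokine release. In fat, type 1 cells are known as a source of interferon gamma, and VAT Tregs are known for the receptor ST2, encoded by Il1rl1.

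The hashtag is the only link between a cell and its source, so the barcode oligo of each is shown, 5′ to 3′ and in lower case throughout. The first 4 lines are the side called hashtags 1 to 4, and the last 2 lines are hashtags 5 and 6.
Hashtag 1: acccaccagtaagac
Hashtag 2: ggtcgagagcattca
Hashtag 3: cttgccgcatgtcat
Hashtag 4: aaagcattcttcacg
Hashtag 5: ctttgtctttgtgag
Hashtag 6: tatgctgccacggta

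The sides were chosen from measured values, and those values are given as a description. Among all T cells, a UMI of Il1rl1 was present in 26.9%, 39.8%, 23.6% and 44.0% of cells of hashtags 1 to 4, against 4.44% and 4.22% in hashtags 5 and 6. Because the sides were picked with such differences in view, and because hashtags of unknown origin are not replicates of a condition, no test was run and no p-value is given. Every statement below is a description of 6 sums of cells.

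Hashtags 1 to 6 held 456, 219, 295, 151, 367 and 326 of the Cxcr3-positive cells, which were 17.6%, 15.3%, 17.9%, 12.8%, 10.2% and 9.75% of the T cells of each hashtag. The 6 sums ran from 461050 to 1360602 UMIs. Median UMIs per cell were 2605 to 2998 in hashtags 1 to 4 and 3192 and 3311 in hashtags 5 and 6. Cells of the second side thus had somewhat more UMIs. The median mitochondrial share was 2.20% to 2.29% in every hashtag. Levels are given as CPM, the UMIs of a gene per 1000000 UMIs of the summed cells, with exact 95% Poisson intervals that cover counting error only. In such sums, more cells using a gene and more mRNA per cell cannot be told apart.

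Of the 1814 cells, 1167 had exactly 1 Cxcr3 UMI, 399 had 2 and 248 had 3 or more, and 5219 cells that met the rest of the rule had none. Free RNA can give a single UMI. Among barcodes rich in complement C1q genes, which mark macrophages, Cxcr3 was found in 17.6% (n = 51, median 4564 UMIs) and 27.96% (n = 93, median 3370 UMIs) of the 2 sides. Over all T cells the shares were 36.3% (median 2866 UMIs) in hashtags 1 to 4 and 19.98% (median 3455 UMIs) in hashtags 5 and 6. In hashtags 5 and 6 the share in all T cells was below that in C1q-rich barcodes. Among barcodes with B cell genes it was 40% of 20 in hashtags 1 to 4 (median 8991 UMIs) and 11.1% of 9 in hashtags 5 and 6 (median 5077 UMIs). The former was above the T cells of those hashtags, but these barcodes had far more UMIs. These shares count barcodes with 1 or more Cxcr3 UMIs, and barcodes that also held T cell genes were not taken out of the other classes. In hashtags 1 to 4 the T cell share was above that of C1q-rich barcodes but not above that of barcodes with B cell genes. How many members with a single Cxcr3 UMI are background is therefore not known on either side. Close to the hashtag limit, 12 members had a top tag at 80% to 82% of the hashtag counts, and 12 cells just outside had 78% to 80%.

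Th1 markers were mostly higher in members than in the other T cells of the same hashtags. Memory markers were mostly so in hashtags 5 and 6 but not in hashtags 1 to 4. The other T cells include those that the rule left out for Foxp3, Il1rl1, Ikzf2, Cxcr5 or Mki67. Cells with Il1rl1 were 23.6% to 44.0% of T cells in hashtags 1 to 4, against 4.44% and 4.22%, so the 2 sides have unlike comparators. In T cells with a Foxp3 UMI of hashtags 1 to 4, median S100a4 was 3666 CPM. A lower level than in other T cells thus does not show that members lack memory genes. Of 10 Th1 markers outside the rule, 9 had a higher median in members than in other T cells in hashtags 1 to 4, all but Cxcr6, and 10 did in hashtags 5 and 6. In hashtags 5 and 6 this also held for 5 of 5 cytotoxic, 3 of 3 endothelial, 3 of 3 adipocyte and 2 of 2 erythroid markers. These counts take any excess, however small. Adipoq was at 1.62 against 1.58 CPM, from 4 UMIs in members, and Cldn5 at 10.7 against 10.5 CPM, while Hbb-bs was at 1163 against 776 CPM. It held there for 0 of 7 naive and 0 of 5 Treg markers. In hashtags 1 to 4 it held for 4 of 5 CD8, natural killer T and gamma-delta markers and 3 of 5 cytotoxic markers. For endothelial, adipocyte and erythroid markers it was 1 of 3, 2 of 3 and 0 of 2. Such counts alone thus do not single out Th1 cells. Median Tbx21 was 80.2 CPM in members and 40.0 CPM in other T cells of hashtags 1 to 4, and 29.8 and 10.9 CPM in hashtags 5 and 6. Median Ly6c2, a surface protein of type 1 memory cells, was 368 CPM in members against 94.8 CPM in other T cells of hashtags 1 to 4, and 67.6 against 13.5 CPM in hashtags 5 and 6. Of 8 memory markers, 1 had a higher median in members in hashtags 1 to 4 and 7 did in hashtags 5 and 6, all but Crip1. The former was the integrin chain gene Itgb1, at 701 against 353 CPM in hashtags 1 to 4 and 279 against 166 CPM in hashtags 5 and 6. Cd44 was at 142 against 172 CPM and at 68.5 against 44.6 CPM, in that order. The memory gene S100a4 had a median of 1407 CPM in members of hashtags 1 to 4, below the 2794 CPM of their other T cells, and 261 CPM in hashtags 5 and 6, close to the 238 CPM of their other T cells. The naive genes Ccr7 and Lef1 had medians of 138 and 224 CPM in the members of hashtags 5 and 6, against 219 and 335 CPM in the other T cells of those hashtags. The cells are called Cxcr3-positive T cells here, after their rule.

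Of 7519 genes with a mean of at least 10 CPM over the hashtags, 1305 (17.4%) were higher in all of hashtags 1 to 4 than in both of hashtags 5 and 6, and 749 (9.96%) were lower in all of them. For 246 genes (3.27%) the hashtags did not overlap and the median was 2-fold or more higher in hashtags 1 to 4, and for 77 genes (1.02%) it was 2-fold or more lower. These are the background shares against which gene lists are read below. In 82 of the 246 and 23 of the 77 genes, the Poisson intervals of the 2 sides were apart as well. Just inside the 2-fold limit were 55 higher genes with a log2 difference of 1 to 1.1 and 15 lower genes with one of -1 to -1.1, and just outside were 66 and 22 genes with 0.9 to 1 and -0.9 to -1. Differences are the median log2 CPM of hashtags 1 to 4 minus that of hashtags 5 and 6, with a prior count of 0.5. Their median over all 7519 genes was 0.06.

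**Figure D1:**
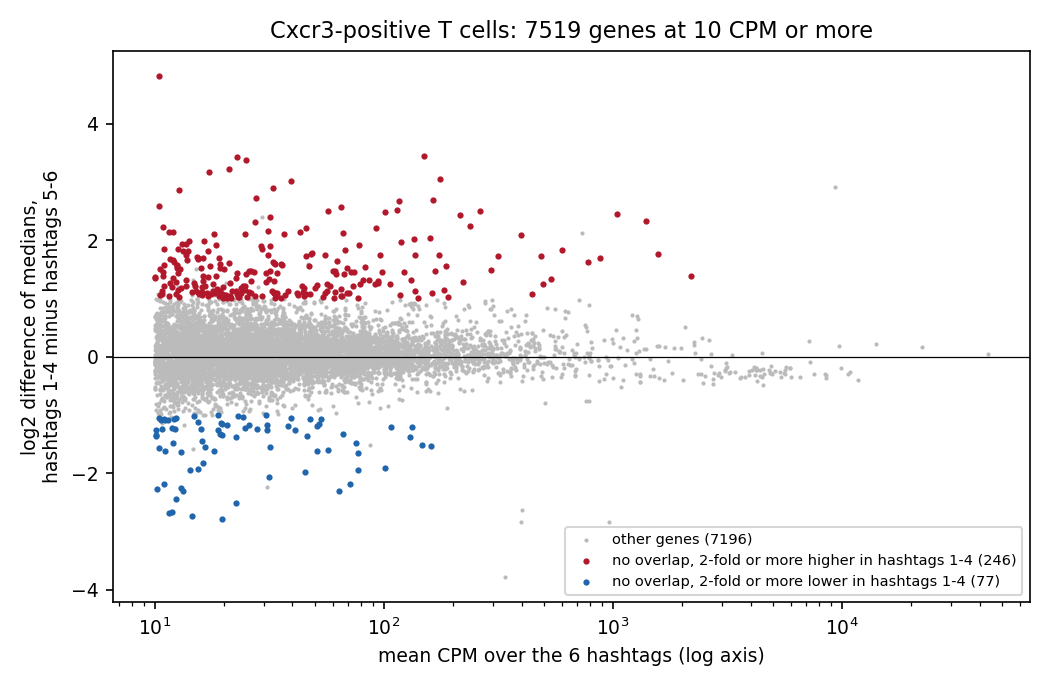
Mean CPM over the 6 hashtags (log axis) against the log2 difference of medians, hashtags 1 to 4 minus hashtags 5 and 6, for 7519 genes in Cxcr3-positive T cells, 1 point per gene. The 246 red genes and 77 blue genes have no overlap between the sides and a difference of 2-fold or more, and red points outnumber blue ones.

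**Figure D2:**
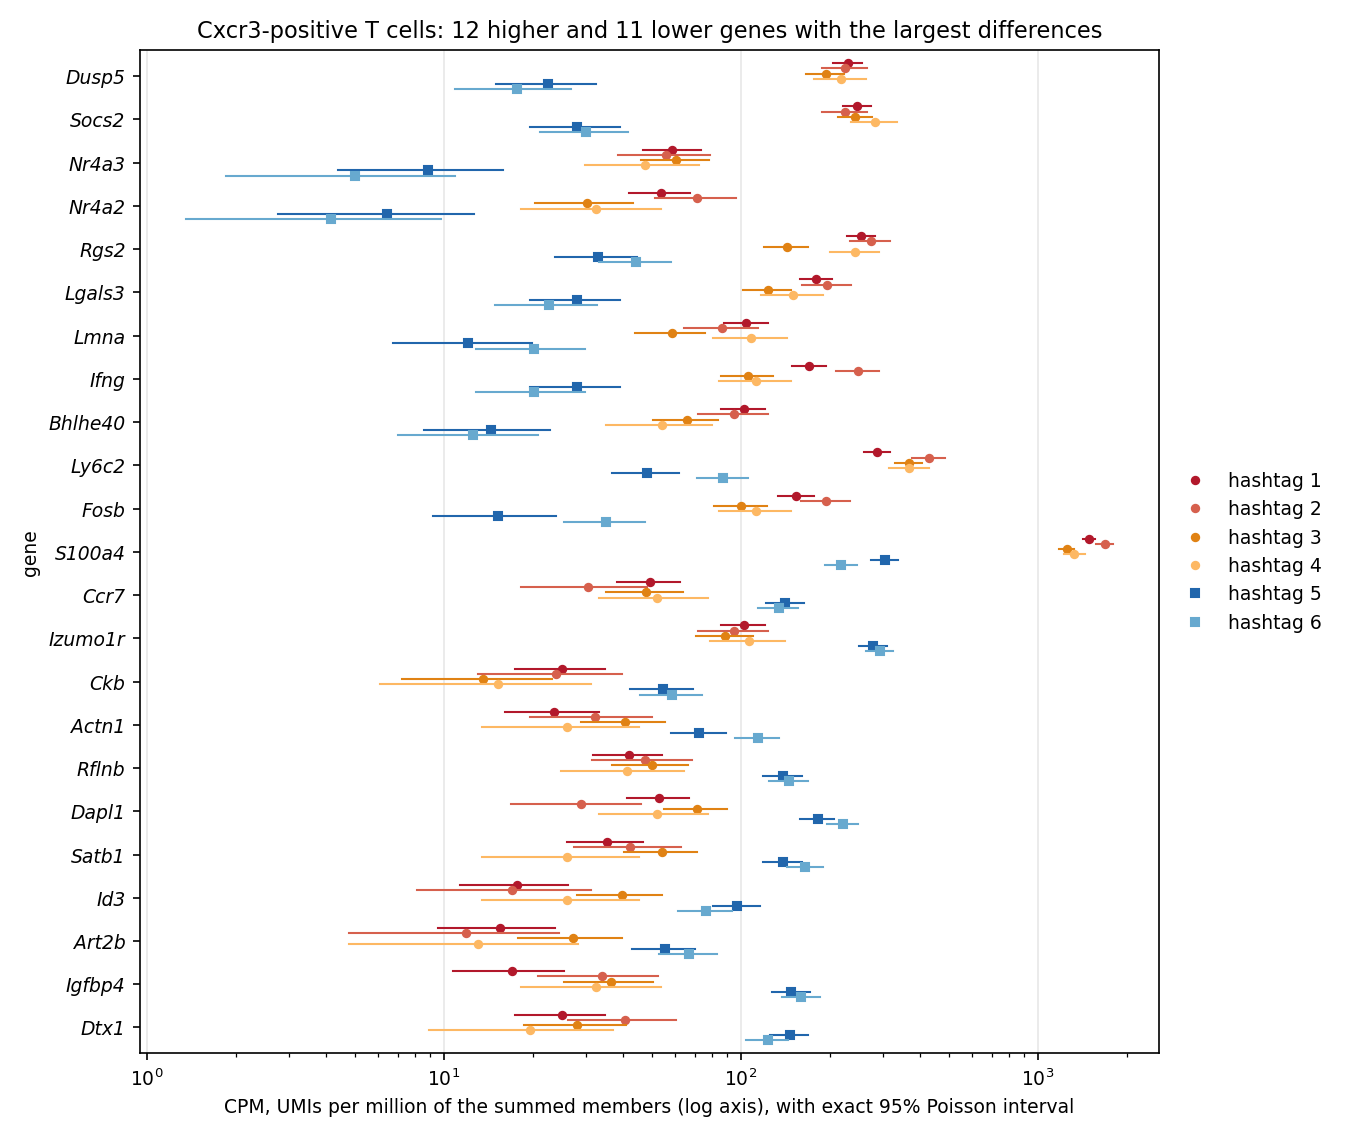
CPM of 12 higher and 11 lower genes, those with the largest differences among well measured genes, by hashtag (log axis). Circles are hashtags 1 to 4, squares are hashtags 5 and 6, and lines are exact 95% Poisson intervals; for each gene the circles and squares lie in separate ranges.

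Genes of the Th1 programme were higher in hashtags 1 to 4. All these cells had been chosen for Cxcr3, but Cxcr3 itself was uneven between the sides. It was at 562, 608, 491 and 527 CPM in hashtags 1 to 4, against 432 and 366 CPM. The part of this in the Th1 differences was not tested. Of 22 Th1 factors and receptors, 18 were measured at 10 CPM or more, 14 were higher in all of hashtags 1 to 4, and none was lower in all of them. The list median was 0.91, against 0.06 for all genes. Ifng, which encodes interferon gamma (chromosome 10, bases 118441046 to 118445894, mm10), was at 170, 248, 105 and 113 CPM in hashtags 1 to 4 and at 28.1 and 20.1 CPM in hashtags 5 and 6. The lowest of the first 4 stood well above both others, and the medians were 5.72-fold apart (log2 2.52). The share of cells with an Ifng UMI, after each cell was thinned to 1500 UMIs, was 18.8%, 18.8%, 10.5% and 12.9% in hashtags 1 to 4 and 3.68% and 3.48% in hashtags 5 and 6. Unthinned shares were 27.6%, 31.1%, 20.7%, 20.5%, 7.63% and 7.06%. Naive-type cells, which are T cells chosen for naive homing genes, Ccr7 among them, and for the absence of Cxcr3, should lack Ifng and had it in 0.730% and 0.508% of thinned cells of hashtags 5 and 6.

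Tbx21, the master factor of the Th1 lineage, was at 75.7, 109, 75.1 and 84.6 CPM in hashtags 1 to 4 and at 34.5 and 25.1 CPM in the other two (log2 1.43). Ly6c2 was at 287, 429, 368 and 369 CPM against 48.1 and 87.0 CPM (log2 2.499). Ifngr1, the ligand-binding chain of the interferon gamma receptor, was at 403, 395, 412 and 438 CPM against 109 and 136 CPM (log2 1.74). The first 4 hashtags lay within a narrow band for Ifngr1, while Ly6c2 was spread more widely. Both chains of the interleukin-18 receptor, Il18r1 (log2 1.24) and Il18rap (1.56), were higher without overlap, as were Fas ligand (Fasl, 1.72), Stat4 (0.93), which signals for interleukin-12, and the granule protein gene Nkg7 (0.89). The chemokine gene Ccl5 ran from 3752 to 5064 CPM in hashtags 1 to 4 and was at 6157 and 2951 CPM in hashtags 5 and 6, so its values overlapped (0.06). Ly6c1 (-0.50) and Il12rb1 (-0.15) overlapped too. Among other effector cytokines, Tnf was at 60.3, 129, 69.9 and 99.8 CPM against 17.7 and 30.1 CPM (log2 1.83), and Il2, a growth factor of T cells, was higher by a log2 of 1.47 without overlap.

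The genes that stood apart most as a group were the AP-1 transcription factors and other immediate early genes. AP-1 is a dimer of Fos and Jun proteins. Its genes are switched on quickly by many stimuli, including antigen receptor signals and the handling of cells. Of 26 listed genes, 23 were measured, 21 were higher in all of hashtags 1 to 4, Btg1 alone was lower (-0.40), and Ier5 overlapped (-0.01). The list median was 1.66, and 16 members were 2-fold or more higher. Junb, a Jun family member (chromosome 8, bases 84976909 to 84978748), was at 2052, 1984, 1575 and 1976 CPM in hashtags 1 to 4 and at 396 and 395 CPM in hashtags 5 and 6, a log2 difference of 2.32. Hashtag 3 was the lowest of the first 4 and still nearly 4 times the level of hashtags 5 and 6. Fos was at 286, 319, 273 and 308 CPM against 61.8 and 47.7 CPM (log2 2.44), and Fosb, its close relative, at 154, 193, 100 and 113 CPM against 15.2 and 35.1 CPM (2.48). Jun itself differed less (0.58), and so did Egr1 (0.51), both without overlap. Dusp1, a phosphatase that shuts off stress kinases, was at 287, 480, 231 and 310 CPM against 59.4 and 65.2 CPM (2.25). Klf4 (2.32), Fosl2 (2.21), Klf6 (2.09) and Ppp1r15a (2.02) were also more than 4-fold higher.

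The AP-1 difference lay across the cells and not in a few of them. After thinning to 1500 UMIs, the median cell of hashtags 1 to 4 held 12, 14, 10 and 11 UMIs of the 26 genes, and the median cell of hashtags 5 and 6 held 6 and 5. Cells with at most 10 such UMIs made up 40.6%, 35.1%, 50.7% and 44.3% of hashtags 1 to 4 and 90.7% and 93.7% of hashtags 5 and 6. The thinning left out between 10 and 25 shallower cells per hashtag. The summed level of the list was 7210 to 9165 CPM in hashtags 1 to 4 and 3745 to 3900 CPM in hashtags 5 and 6. It was 6908 to 8600 against 3758 to 3880 CPM in the members without an Ifng UMI. The AP-1 list was thus higher in hashtags 1 to 4 also among members in which Ifng was not detected.

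**Figure D3:**
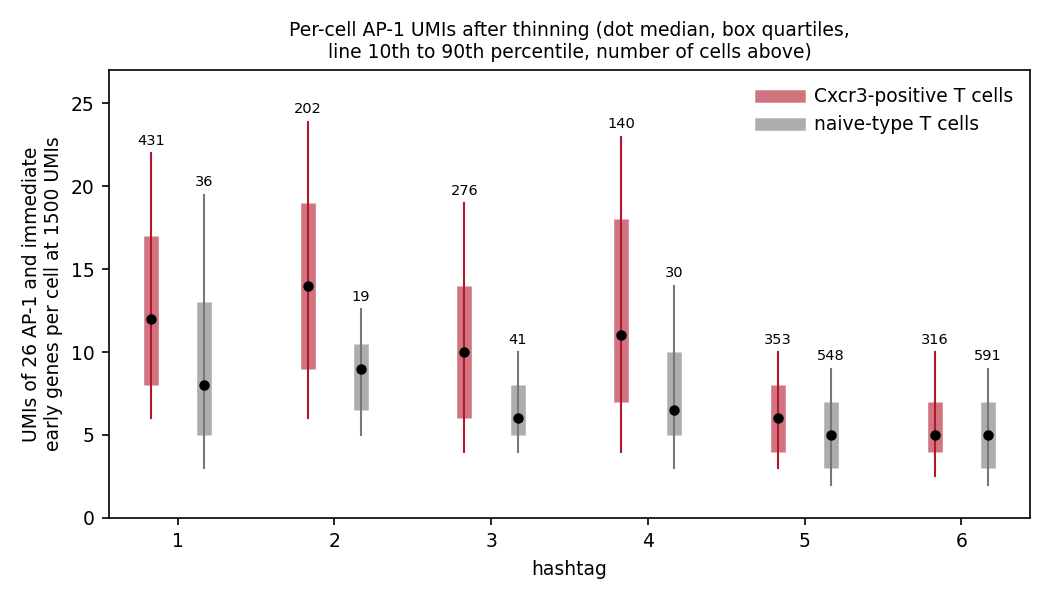
UMIs of 26 AP-1 and immediate early genes per cell after thinning to 1500 UMIs, by hashtag, for Cxcr3-positive T cells (red) and naive-type T cells (grey). Dots are medians, boxes quartiles, lines the 10th to 90th percentile, with the number of cells above; red medians are 10 to 14 in hashtags 1 to 4 and 5 to 6 in hashtags 5 and 6.

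Naive-type cells, read the same way, had medians of 8, 9, 6 and 6.5 such UMIs in hashtags 1 to 4 and 5 in both of hashtags 5 and 6. Their AP-1 list had a median log2 difference of 0.64, and in T cells with a Foxp3 UMI it was 3.02. Only 23 to 42 naive-type cells were found in each of hashtags 1 to 4, so their sums are thin. The AP-1 list was thus higher in hashtags 1 to 4 in all 3 cell classes read, and whether the sizes differ between the classes was not tested. The part of tissue, sorting or handling in these differences cannot be told apart, since each would come with the hashtag.

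Promoters are shown for 3 of the higher genes, picked because their upstream sequences hold matches to the motifs searched. They are Dusp1, the feedback gene Tnfaip3, which encodes the NF-kappaB inhibitor A20, and Dusp5. Tnfaip3 has 2 windows, of which 1 is shown. Each line gives the 250 bases before the annotated start in RefSeq (GRCm38.p6, the assembly also called mm10), 5′ to 3′ on the gene's strand, with motif matches in capitals. The motifs searched on both strands were AP-1 (TGANTCA), the cyclic AMP response element (TGACGTCA), the E-box bound by clock proteins (CACGTG) and NF-kappaB (GGG, any 2 bases, TTTCC).
Dusp1, chr17:26508473-26508722, minus strand: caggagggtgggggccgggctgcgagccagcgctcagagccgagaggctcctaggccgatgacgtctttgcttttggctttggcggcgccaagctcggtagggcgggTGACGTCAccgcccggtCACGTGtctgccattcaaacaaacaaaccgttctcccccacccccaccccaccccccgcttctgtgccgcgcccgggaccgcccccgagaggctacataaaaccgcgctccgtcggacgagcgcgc
Tnfaip3, chr10:19015411-19015660, minus strand: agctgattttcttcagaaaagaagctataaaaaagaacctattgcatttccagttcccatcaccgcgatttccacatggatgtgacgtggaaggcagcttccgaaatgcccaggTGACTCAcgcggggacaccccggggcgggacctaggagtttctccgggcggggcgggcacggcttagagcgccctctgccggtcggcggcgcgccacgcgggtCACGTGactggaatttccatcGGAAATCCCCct
Dusp5, chr19:53528895-53529144, plus strand: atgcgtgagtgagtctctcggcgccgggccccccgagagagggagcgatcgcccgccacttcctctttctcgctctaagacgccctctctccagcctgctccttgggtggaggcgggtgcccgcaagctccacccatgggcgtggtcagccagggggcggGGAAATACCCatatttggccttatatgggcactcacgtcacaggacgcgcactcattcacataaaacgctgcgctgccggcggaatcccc
In the Dusp1 window the response element begins 143 bases before the start and the E-box 126 bases before it. In the Tnfaip3 window the AP-1 match begins at 136, the E-box at 33 and the NF-kappaB match at 12 bases before the start, and the NF-kappaB match of Dusp5 begins at 90.

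A window was found for 176 of the 246 higher genes and 52 of the 77 lower genes, and some genes have more than 1. The AP-1 motif was in 7.95% of the 239 windows of higher genes, 2.99% of the 67 windows of lower genes, 4.05% of the windows of all measured genes and 6.75% of all windows in the table. The NF-kappaB motif was in 5.02%, 0%, 1.43% and 1.41%, in that order. The response element was in 2.09%, 0%, 2.82% and 1.55%, and the E-box in 7.11%, 7.46%, 8.98% and 6.02%. The AP-1 share of higher genes was thus above that of measured genes but near that of all windows. A match describes letters and does not show binding.

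Genes induced by T cell receptor signals were mostly higher in hashtags 1 to 4. Of 25 listed, 21 were measured, 15 were higher without overlap and 1, Cd200 (-0.65), was lower. The list median was 0.68. Dusp5, a nuclear phosphatase that limits the kinase ERK, was at 229, 224, 193 and 217 CPM against 22.5 and 17.6 CPM, a 10.8-fold difference (log2 3.44). After thinning, a Dusp5 UMI was present in 25.3%, 25.2%, 24.3% and 22.9% of cells of hashtags 1 to 4 and in 3.12% and 2.85% of those of hashtags 5 and 6 (39.5%, 36.1%, 35.3%, 34.4%, 7.36% and 5.83% unthinned). In naive-type cells the thinned shares were 8.33%, 15.8%, 9.76% and 10.0% against 3.28% and 4.06%. The orphan nuclear receptors Nr4a3 (58.8, 56.0, 60.5 and 47.7 against 8.83 and 5.02 CPM, log2 3.01) and Nr4a2 (2.89) differed more than Nr4a1 (1.30), the family member most used as a reporter of receptor signals. The ERK inhibitor Spry1 (2.40) and the activation marker Cd69 (1.55) were higher as well, while Nfatc1 (-0.13), Rel (-0.20) and Egr3 (0.36) overlapped.

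Feedback inhibitors of cytokine signals were led by Socs2, which restrains signals through STAT5. Socs2 (chromosome 10, bases 95383903 to 95417321) was at 246, 224, 243 and 282 CPM in hashtags 1 to 4 and at 28.1 and 30.1 CPM in hashtags 5 and 6, 8.28-fold apart (log2 3.05). Its values lay close together within each side. In naive-type cells its difference was -1.90 with overlap, but the median CPM were 7.59 and 10.6. No Socs2 UMI was found in naive-type cells of hashtags 3 and 4, so this value rests on few UMIs. In T cells with Foxp3 the Socs2 difference was 1.37 without overlap. Cish, another STAT5 target, was at 60.3, 91.6, 81.3 and 86.8 CPM against 31.3 and 22.6 CPM (1.64). In all, 7 of 16 measured genes of the list were higher without overlap, none was lower, and the median was 0.38. Socs3 (0.45) and the STAT genes Stat3 (-0.05) and Stat6 (0.02) overlapped.

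Memory and activation genes were higher in hashtags 1 to 4, which is a part of what set these hashtags apart from the start. All 24 listed genes were measured, 19 were higher without overlap, 13 of them by 2-fold or more, and the median was 1.096. S100a4, a calcium-binding protein of migrating cells, was at 1488, 1677, 1251 and 1327 CPM against 305 and 217 CPM (log2 2.45). Its thinned share of cells was 69.6%, 75.7%, 71.0% and 67.1% against 26.3% and 21.8% (80.04%, 81.7%, 81.0%, 80.8%, 42.2% and 38.7% unthinned). In naive-type cells of hashtags 5 and 6 it was 16.8% and 13.7%, below the members of the same hashtags. The galectin gene Lgals3 (2.68), the annexin genes Anxa1 (2.12) and Anxa2 (2.04), the giant scaffold gene Ahnak (1.72), the integrin chain gene Itgb1 (1.34) and the adhesion receptor gene Cd44 (1.05) were higher without overlap. Cd27, a costimulatory receptor lost on late memory cells, was lower (-0.60). Il7r, the survival receptor of naive and memory cells alike, overlapped (-0.01).

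Naive and quiescence genes were on the opposite side. Of 20 listed, 19 were measured, 16 were lower in all of hashtags 1 to 4 and none was higher, with a median of -1.07. Ccr7 was at 49.2, 30.5, 48.0 and 52.1 CPM against 141 and 134 CPM (log2 -1.49). Igfbp4 was at 16.9, 33.9, 36.5 and 32.5 CPM against 148 and 160 CPM (-2.19), and the chromatin organiser Satb1 at 35.3, 42.4, 54.2 and 26.03 CPM against 139 and 165 CPM (-1.95). Dtx1, an E3 ligase of the Notch pathway and no member of that list, was at 24.99, 40.7, 28.1 and 19.5 CPM against 146 and 123 CPM, 4.97-fold lower in hashtags 1 to 4 (-2.31). Id3, an inhibitor of E proteins, was lower by a log2 of 1.98, and Izumo1r, which encodes folate receptor 4, was at 102, 95.04, 88.6 and 106 CPM against 279 and 294 CPM (-1.53). Klf2 (-0.14), Klf3 (0.01) and Bach2 (-0.60), which keep T cells quiet, overlapped.

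Without any cell that had a UMI of 1 or more of 6 naive genes, Ccr7, Lef1, Dapl1, Igfbp4 and Satb1 among them, a choice made after the data had been seen, 795 of the 1814 cells were left. The AP-1 median was then 1.72 and the Th1 median 0.65. The number of 2-fold higher genes was 320, of which 147 were among the 246, and that of 2-fold lower genes was 160, of which 40 were among the 77. The naive median, whose main genes had been used to choose these cells, was -0.38.

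**Figure D4:**
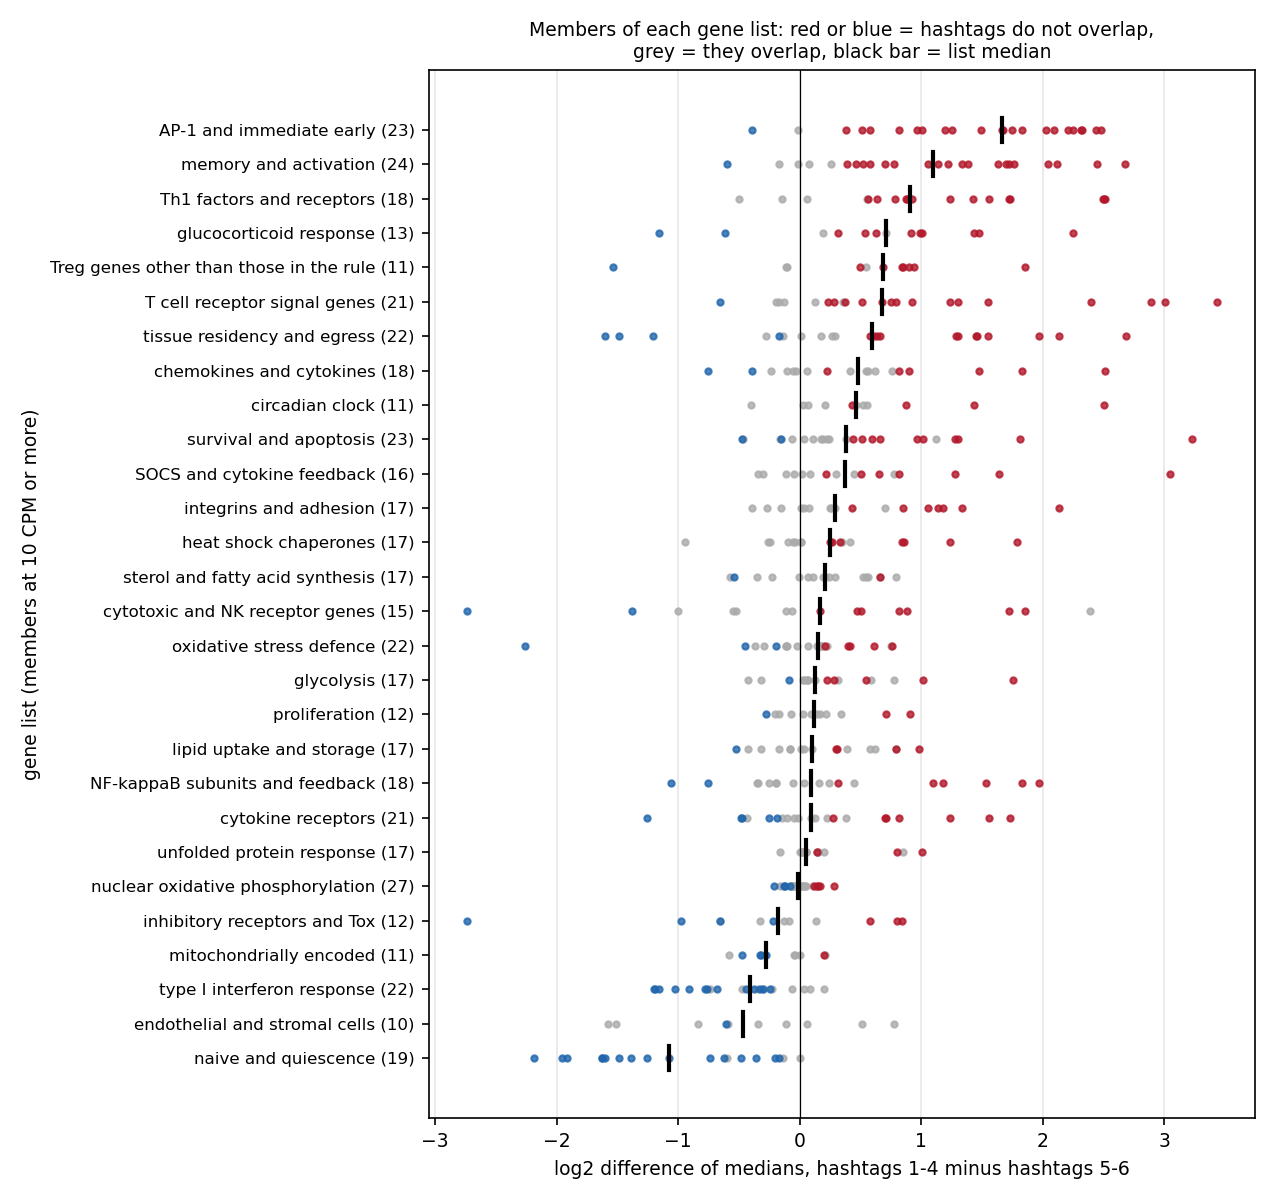
Log2 difference of medians, hashtags 1 to 4 minus hashtags 5 and 6, for the measured members of each gene list with at least 10 of them, with their number in brackets. Red and blue points are genes whose hashtags do not overlap, grey points overlap, and black bars are list medians, from -1.07 for naive genes to 1.66 for AP-1 genes.

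Type I interferon response genes were lower in hashtags 1 to 4. Of 25 listed, 22 were measured, none was higher without overlap, 13 were lower, and the median was -0.41, although Ifng and its receptor chain were higher. Iigp1, a GTPase gene induced by interferon, was at 41.2, 40.7, 31.3 and 28.2 CPM against 85.0 and 79.5 CPM (log2 -1.19). Rtp4 (-1.15), Ifit1 (-1.02), Usp18 (-0.91) and Stat2 (-0.78) were lower without overlap. Rtp4 was at 0.35 in the 273 members without a UMI of genes of other cell types, a value that rests on few UMIs. In all members Rtp4 had 6 to 39 UMIs per hashtag. Irf7 (0.20), Irf1 (-0.06) and Isg15 (-0.34) overlapped. The list median was -0.41 in naive-type cells and -0.66 in T cells with Foxp3.

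Genes of tissue residency and of migration were mixed. Of 22 measured residency and egress genes, 12 were higher and 4 lower without overlap (median 0.60). Itga1, the collagen-binding integrin chain of resident cells, was at 51.4, 61.1, 45.9 and 75.9 CPM against 9.63 and 15.9 CPM (log2 2.13), and Rgs2, a brake on G protein signals, at 254, 273, 143 and 243 CPM against 32.9 and 44.3 CPM (2.69). Prdm1, which encodes the factor Blimp-1 (1.29), and Crem (1.46) were higher too. Cxcr6, the receptor for a chemokine of tissue stroma, was at 287, 268, 205 and 202 CPM against 148 and 154 CPM (0.63). Among chemokine receptors, Ccr2 was at 152, 158, 144 and 169 CPM against 53.0 and 59.4 CPM (1.46) and Cxcr4 was higher by a like amount (1.47). The gut-homing receptor Ccr9 was lower (-1.63), and at 0.44 in those 273 members. Ccr9 had only 3 to 35 UMIs per hashtag in all members, so the latter value rests on few. S1pr1, which lets cells leave tissue, differed little (-0.17) although its hashtags did not overlap, and Klf2, which drives it, overlapped.

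Cytotoxic and natural killer receptor genes had no common direction. Of 15 measured, 7 were higher and 2 lower without overlap (median 0.17). Cd160 was at 3.67, 11.9, 5.21 and 2.17 CPM against 34.5 and 30.1 CPM (log2 -2.74), and Klrd1 was lower as well (-1.38). In the 273 members without any UMI of genes of other cell types Klrd1 was at 0.63. Klrd1 had only 2 to 48 UMIs per hashtag in all members, so the value in the 273 members rests on few. Klrg1, a receptor of late effector cells and of VAT Tregs, was higher (1.85), at 26.1 to 51.4 CPM against 15.2 and 6.69 CPM. Gzmk (-0.53) and Eomes (-0.55) overlapped, and hashtag 5, with 116 CPM of Gzmk, stood above hashtag 6 with 39.3 CPM. Either gene was detected in 15.9% of thinned members of hashtag 5 and in 5.45% to 10.7% of those of the other 5 hashtags (23.2%, and 9.59% to 13.8%, unthinned).

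NF-kappaB feedback genes and subunits differed: Tnfaip3 (log2 1.97), Nfkbid (1.53), Nfkbiz (1.0997) and Icam1 (1.18) did not overlap, and Nfkb1 (-0.19), Rela (0.03) and Relb (-0.35) did. Overall 6 of 18 measured members were higher and 2 lower, with a median of 0.10 that was close to that of all genes. Of 13 measured glucocorticoid response genes, 9 were higher and 2 lower (median 0.71), among them Tsc22d3 (0.92), Sgk1 (1.01) and Fkbp5 (0.54), which are classic targets of the glucocorticoid receptor, while Pik3ip1 (-1.16) was lower. Survival and apoptosis genes counted 10 higher and 2 lower of 23 (median 0.39). Cdkn1a, a cell cycle inhibitor, was at 23.5, 39.0, 26.1 and 32.5 CPM against 1.60 and 4.18 CPM (3.23), and both the protective Bcl2 (0.97) and Bcl2l1 (1.31) and the death-promoting Pmaip1 (1.82) were higher. Of 17 heat shock chaperones, 7 were higher (median 0.25), with Hspa1a at 1.79.

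Metabolic lists had medians between -0.28 and 0.21, and 2 glycolysis genes stood 2-fold or more apart. Nuclear genes of oxidative phosphorylation had a median of -0.02, with 5 higher and 4 lower of 27. Glycolysis genes had a median of 0.13, with 5 higher and 1 lower of 17. The 2 genes higher by 2-fold or more were the hexokinase gene Hk2, at 12.5, 6.79, 22.9 and 30.4 CPM against 3.21 and 6.69 CPM (log2 1.75), and the glucose transporter gene Slc2a1, at 18.4, 30.5, 29.2 and 21.7 CPM against 10.4 and 14.2 CPM (1.02). Hashtag 2 was barely above hashtag 6 for Hk2. Gapdh was at 805 to 903 CPM against 600 and 558 CPM (0.54). Of 11 measured mitochondrially encoded genes, 4 were lower and 1 higher without overlap (median -0.28). Lipid uptake and storage genes counted 4 higher and 1 lower of 17 (median 0.10), and sterol and fatty acid synthesis 1 and 1 of 17 (median 0.21).

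Clock genes were scarce in these cells, and 11 of 21 listed reached 10 CPM. Arntl, which encodes Bmal1 and is the gene deleted in Tregs in this study, was at 19.8, 20.4, 12.5 and 26.03 CPM in hashtags 1 to 4 and at 12.03 and 15.9 CPM in hashtags 5 and 6. These rest on 27, 12, 12, 12, 15 and 19 UMIs, the values overlapped (log2 0.52), and no hashtag lacked the gene. Read 3′ UMIs need not cover a deleted exon, and the hashtags have no genotype, so these values check no label. Its partner Clock also overlapped (0.07), as did the repressor Cry1 (0.46) and the output factors Dbp (-0.40) and Tef (0.55). Per1, a repressor of the clock that other signals also induce, was at 27.2, 32.2, 17.7 and 39.0 CPM against 10.4 and 10.9 CPM (1.43). Bhlhe40, a clock repressor that is also needed for cytokine production in T cells, was at 102, 95.04, 65.7 and 54.2 CPM against 14.4 and 12.5 CPM (2.51). Rora (0.88) and Nr1d2 (0.43) were higher without overlap too, but Nr1d2 was at -0.37 after thinning. Counting 4 of 11 higher and none lower, the list had a median of 0.46.

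**Figure D5:**
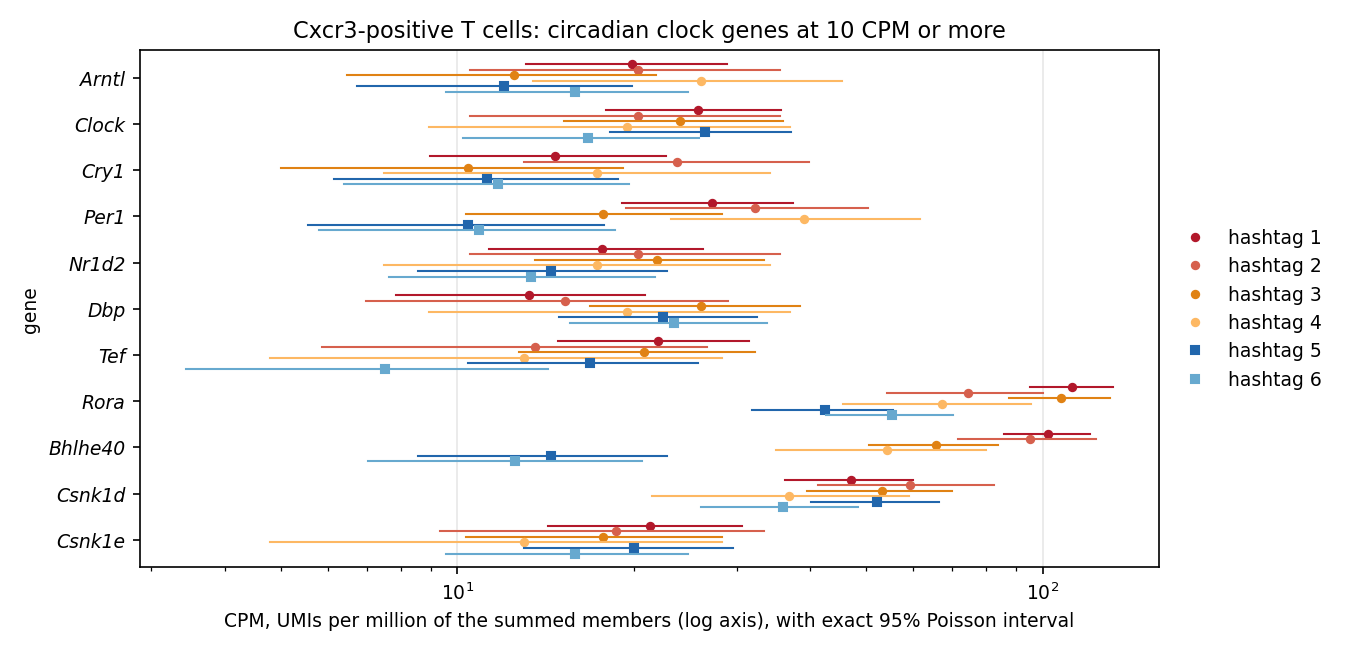
CPM of the 11 clock genes at 10 CPM or more in Cxcr3-positive T cells, by hashtag (log axis), with exact 95% Poisson intervals. Circles are hashtags 1 to 4 and squares hashtags 5 and 6; the sides lie apart for Per1, Bhlhe40, Rora and Nr1d2 and overlap for the other 7 genes, and for most genes the intervals overlap.

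RNA of other cells was present and uneven. Igkc, the immunoglobulin light chain of B cells, was at 9305, 516, 9438 and 32697 CPM in hashtags 1 to 4 and at 404 and 3790 CPM in hashtags 5 and 6, with hashtag 4 highest. Haemoglobin Hbb-bs was at 246, 3006, 82.4 and 95.4 CPM against 1557 and 769 CPM, with hashtag 2 highest. The 13 B cell genes summed to 922 to 41681 CPM against 870 to 5445 CPM. Cd79a, a chain of the B cell receptor complex, was at 6.26 to 17.4 CPM against 0.802 and 4.18 CPM without overlap, from 31 and 6 UMIs, and Ms4a1, which encodes the B cell antigen CD20, had 3 UMIs on each side. The 4 macrophage markers summed to 42.4 to 178 CPM against 68.2 to 91.2 CPM, the 3 endothelial markers to 17.6 to 102 against 28.1 to 61.9 CPM, and the 3 adipocyte markers to 3.39 to 52.1 against 8.36 to 18.5 CPM. Without immunoglobulin and haemoglobin genes, an alternative added after seeing the data, the counts were 260 higher and 73 lower genes.

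Unrecognised Tregs and other T cell types were looked for among the members. The rule holds Foxp3, Il1rl1 and Ikzf2 at 0, so other Treg genes were read. Areg, a repair factor of VAT Tregs, had a median of 38.4 CPM in members of hashtags 1 to 4, against 725 CPM in their other T cells. Il10 had a median of 11.6 CPM against 108 CPM in other T cells, Cyp11a1 5.12 against 43.5 CPM, and Klrg1 38.9 against 334 CPM in hashtags 1 to 4. In hashtags 5 and 6 only some of these genes were near the other T cells. Areg was at 20.4 against 22.7 CPM there, Il10 at 7.79 against 9.54 CPM and Ctla4 at 53.9 against 57.8 CPM. Il2ra was lower in members of hashtags 5 and 6, at 23.8 against 36.2 CPM, as was Klrg1, at 10.97 against 17.5 CPM. Gpr83 was lower there too, at 4.93 against 16.1 CPM, from 12 UMIs in members. Izumo1r was not low in members of either side, at 98.6 against 106 CPM and 286 against 338 CPM. Of 11 measured Treg genes outside the rule, 7 were higher and 1 lower without overlap (median 0.69), and the list summed to 873 to 1050 CPM against 851 and 852 CPM. Without cells with an Il10, Cyp11a1, Gzmb or Klrg1 UMI, also added after seeing the data, 1581 cells gave 233 higher and 78 lower genes. Of the 6 markers of CD8, natural killer T and gamma-delta cells, 5 were found and summed to 1.70 to 41.2 CPM against 33.7 to 57.7 CPM. Klrb1c, a natural killer receptor, had a median of 2.93 CPM in hashtags 1 to 4 and 21.9 CPM in hashtags 5 and 6. The part of these cells in the results above was tested only by leaving them out.

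The same hashtags were read in 2 other classes of T cells. In naive-type cells, 448 of 7129 measured genes (6.28%) were higher and 470 (6.59%) lower in hashtags 1 to 4 without overlap, and 113 (1.59%) and 88 (1.23%) were so by 2-fold or more. In T cells with a Foxp3 UMI, 1607 of 7733 genes (20.8%) were higher and 1131 (14.6%) lower without overlap, and 694 (8.97%) and 277 (3.58%) by 2-fold or more. These 3 classes share their hashtags and their source, and the number of cells behind them differs, from 23 to 596 per hashtag for naive-type cells and 87 to 189 for cells with Foxp3, so the counts were not compared by a test. Lmna, the nuclear lamin gene, differed by a log2 of 2.57 in Cxcr3-positive cells, 0.12 in naive-type cells and 3.69 in cells with Foxp3. The naive gene list had medians of -1.07, 0.04 and -1.71, the memory list 1.096, 0.29 and 1.12, and the Th1 list 0.91, 0.35 and 1.28, in the same order. Cxcr6 differed by 0.63, 0.35 with overlap and 3.86. Cxcr6 was thus more uneven between the sides in cells with Foxp3 than in the cells chosen for Cxcr3, a difference that was not tested.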

How the data were processed

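Single-cell 3′ RNA-seq gave 1 expression and 1 hashtag library. The deposited values of both are raw UMI counts per feature and barcode, not normalised by the authors. Cell Ranger 6.0, Seurat 3 and mm10 are listed, per the submitters' processing notes, but the matrix header has cellranger 4.0.0. Cells were chosen by the rule stated above (Python 3.11.15, scipy 1.17.1), and UMIs were summed per hashtag. The 80% limit removed doublets in which the second hashtag took a larger share. Doublets with a smaller share of a second hashtag could pass, and pairs with the same hashtag were kept. At a limit of 90%, 1628 of the 1814 members were left, with 261 higher and 80 lower genes.

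CPM, intervals (95%, exact) and medians were computed as described, without a test. edgeR 4.0.16 supplied only TMM factors. The code was tested on simulated data. Genes named are the 12 with the largest difference per direction among those 2-fold apart at a mean of 30 CPM or more, up to 4 per list without overlap, all measured Th1 and clock genes, and Arntl. Other list members were named after their values were seen. The members and the 38 lists were chosen with earlier results of these data known. Of 55487 gene IDs, 55141 were matched to RefSeq names. Tcrg-C1, Tcrg-C2 and H2afz were not found by name. Alternatives covered scaling, low-count filters, prior count, cell rules, thinning to 1500 UMIs and leaving out each hashtag. A few genes that these rules would name are not reported here; counts, list values and cell choices still include them.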

Additional observations from a re-analysis of the deposited data

Results flagged for a closer look

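Among 128 named genes, 5 had 1 hashtag far from the other 3 of hashtags 1 to 4, which chance alone gives in about 1 of 20 groups. Id2 was at 876 CPM in hashtag 2, Junb at 1575 CPM and mt-Cytb at 2662 CPM in hashtag 3, and Ly6d at 41.2 CPM and Ptpn22 at 210 CPM in hashtag 4. Junb of hashtag 3 was the low one, and the other 4 were high. Hashtag 4 also had the highest immunoglobulin level, and Ly6d is a gene of B cells.

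In 5 genes the sides did not overlap in Cxcr3-positive cells and did not overlap in the opposite direction in another class, a difference that was not tested. Ccr7 was higher in hashtags 1 to 4 among naive-type cells (log2 0.25), which were chosen for it, and lower in Cxcr3-positive cells (-1.49). Pecam1 was at 0.52 in naive-type and -0.60 in Cxcr3-positive cells. In T cells with Foxp3, Ccr9 was at 2.14, Gpx1 at 0.72 and Nrp1 at -0.46, while Cxcr3-positive cells had -1.63, -0.45 and 0.94.

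Hashtags 7 to 10 are listed in the hashtag library and were not used. They had 278, 10, 172 and 7 counts over 149999 barcodes, against at least 560096 counts for each of hashtags 1 to 6.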

How the results depend on the processing

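The 246 higher and 77 lower genes were 122 and 28 at a mean of 30 CPM or more, and 531 and 629 without a filter on low genes. They were 385 and 178 when cells with genes of other cell types were left out, which kept 273 cells, 21 of them in hashtag 4. Only 112 of those 385 were among the 246, and 26 of those 178 among the 77, so these counts come from thin sums and mostly other genes. The counts were 320 and 160 without cells with 6 naive genes. Asking for 2 or more Cxcr3 UMIs kept 647 cells and gave 314 higher and 111 lower genes. Of these, 160 were among the 246 and 46 among the 77. Leaving out each hashtag in turn gave 247 to 333 higher and 75 to 100 lower genes. TMM factors gave 202 and 95, and median-of-ratios factors 209 and 92, with all genes shifted by -0.07 and -0.06. Of 121 named genes without overlap, 52 had none in the same direction in all alternatives that could give a value. List medians lay between 1.43 and 1.81 for AP-1, 0.65 and 1.20 for Th1, 0.78 and 1.25 for memory, -1.30 and -0.38 for naive and -0.52 and -0.31 for interferon genes.

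Of 912 list medians, 283 moved and 2 turned: without the filter, type 17 and type 2 genes were at -0.12 and granulocyte genes at -0.34. Of 3156 values of named genes, 405 moved and 16 turned. Without cells with genes of other cell types, C1qb was at 0.63, C1qc 0.16, Ccr9 0.44, Cyp51 0.070, Entpd1 -0.43, Klrd1 0.63, Rtp4 0.35 and Xbp1 -0.67. Cyp51 was at 0.68 without cells with Treg genes and at 0.065 after thinning, which put Nr1d2 at -0.37. Without cells with 6 naive genes, Cyp51 was at 0.66, Lipa 0.14, Ly6d -0.19, Maf -0.049 and Ndufs6 -0.018. The cause was not tested. No paired analysis was possible because no hashtag was assigned to a group or replicate. Counts under about 10 CPM rest on few UMIs in hashtag 4, the smallest sum.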
